A study of Mus musculus with 12 samples.

Results

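The genes described here are 47 cell cycle and DNA replication genes, taken by name from a list of well-known members and found in each of 3 deposited tables of 23951 rows. They were divided by textbook role into 14 genes of DNA replication, 8 regulators that act mostly at the step from G1 into S phase (G1/S regulators below, although 2 of them, Foxm1 and Mybl2, act on later genes too), and 25 genes of mitosis. RNA was sequenced from brain cortex of C57BL/6 mice that differ at Mir137, which encodes the neuronal microRNA miR-137, in 3 genotypes: knockout (KO, miR-137 KO), heterozygous (Het, miR-137/+) and wild type (WT), with 4 libraries each. All 3 groups share strain and tissue. How the allele was made, whether a Cre was used, the age and sex of the mice and any treatment are not stated here by the labels. The study asks what miR-137 does in neurodevelopment. Each table sets 1 genotype against another and gives the authors' RPKM (reads scaled to transcript length and library size), 1 value per genotype, so no SD can be attached to a level and the depth per library is unknown. The titles number the libraries of a genotype as 2 sets of 2 (1-1, 1-2, 2-1 and 2-2) and the protocol speaks of duplicates, without saying which number marks a mouse. There may therefore be fewer independent samples than the 4 libraries. If libraries share a mouse, the authors' p-values measure only the spread among libraries, and that spread may be technical.

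Rose and fell are used only for genes with a q, the adjusted p that the authors deposited, below 0.05, and a fold is the ratio of the 2 RPKM values. A log2 fold is the difference in log2(RPKM + 1), so it is smaller than the ratio implies where levels are low. Mir137 was listed at 0 in all 3 genotypes, so its level gives no check on which genotype a column holds.

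A cell copies its DNA in S phase and divides it in M phase. Before S phase the MCM helicase, a ring of Mcm2 to Mcm7, is loaded on origins by Cdc6 and Cdt1, and cyclin E with Cdk2 and the E2F factors starts replication. Cyclin A and cyclin B with Cdk1 then drive mitosis, in which Aurora and Polo kinases, kinesins and condensin act on the chromosomes and the spindle. The anaphase-promoting complex destroys these cyclins. Most neurons of the cortex have left the cycle. In a postnatal forebrain the dividing cells include progenitors and neuroblasts of the ventricular-subventricular zone, oligodendrocyte precursors, and some microglia and endothelial cells. In bulk tissue a larger number of dividing cells and more RNA per dividing cell cannot be told apart.

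The promoters of the replication and mitosis genes differed in their letters. E2F factors bind sites near the start of replication genes, whereas the CHR element is a short site of mitosis genes bound by the MuvB complex with B-Myb or FoxM1, often beside CCAAT boxes bound by NF-Y. RefSeq promoter windows on GRCm38.p6, from 250 bases before to 50 bases after the start, were held for 36 of the 47 genes, in 39 windows. An E2F site was searched as TTTCCCGC, TTTCGCGC, TTTGCCGC or TTTGGCGC, the CHR element as TTTGAA and the CCAAT box as CCAAT, each on both strands, and overlapping matches were kept.

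An E2F site lay in 7 of 14 replication windows (50.0%) and in 1 of 21 mitosis windows (4.76%), that of Cdk1. In the 150 bases at the start end of each window the counts were 4 of 14 (28.6%) and 0 of 21, against 2.05% of windows of expressed genes, so the replication share depended on the window. Over whole windows the share with an E2F site was 3.66% in 13044 windows of genes of at least 1 RPKM in Het or WT cortex, and in all 32851 windows it was 2.26%. The CHR element ran the other way, with 1 of 14 replication windows (7.14%) and 16 of 21 mitosis windows (76.2%), against 11.2% and 17.9% in those backgrounds. CCAAT boxes were common in both classes, at 78.6% of replication windows and 85.7% of mitosis windows, against 37.2% and 37.4%. Of the 4 windows of G1/S regulators, 1 held an E2F site, that of Cdk2, none held a CHR element and 1 held a CCAAT box. These matches describe the windows and show no binding.

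**Figure D1:**
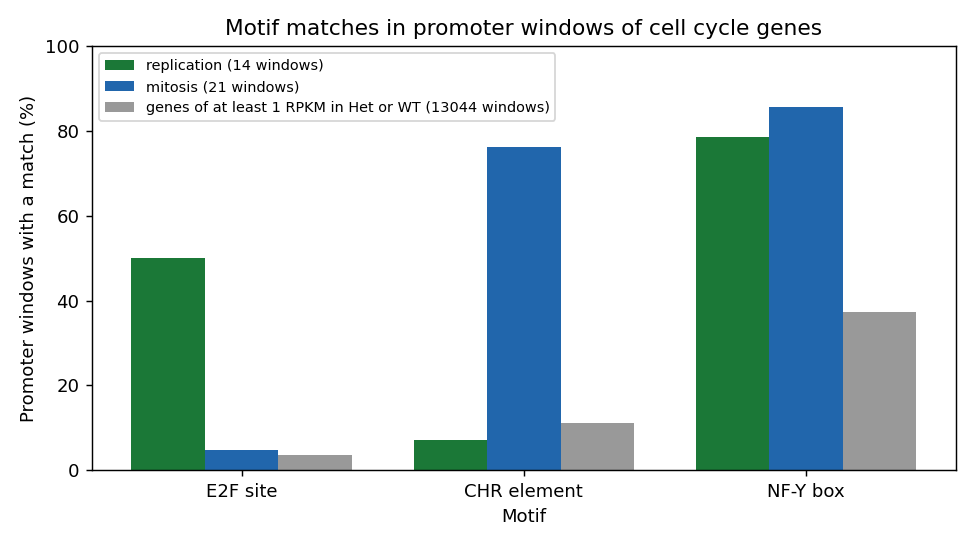
Share of promoter windows (y axis, %) with a match to each of 3 motifs (x axis) in replication genes (green), mitosis genes (blue) and genes of at least 1 RPKM in Het or WT (grey). E2F sites stand at 50.0% in replication windows and 4.76% in mitosis windows, and CHR elements at 7.14% and 76.2%.

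The 7 replication windows with an E2F site are shown as short stretches round 1 match each, because they carry the difference between the classes. All are from RefSeq on GRCm38.p6, written 5′ to 3′ on the strand of the gene, with the E2F site in capitals. The build of the deposited tables is mm9, so these positions are not those of the tables. The stretches lie at chr11:98907999-98908034 (plus strand) for Cdc6, chr8:122568033-122568064 (plus) for Cdt1, chr1:20820263-20820288 (minus) for Mcm3, chr8:75109346-75109381 (plus) for Mcm5, chr1:128359731-128359766 (minus) for Mcm6, chr5:138171846-138171881 (minus) for Mcm7 and chr17:56304114-56304149 (plus) for Uhrf1.
Cdc6: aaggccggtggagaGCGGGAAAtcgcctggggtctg
Cdt1: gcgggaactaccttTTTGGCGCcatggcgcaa
Mcm3: aaaacttgggaagtTTTGGCGCcaag
Mcm5: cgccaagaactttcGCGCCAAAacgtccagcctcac
Mcm6: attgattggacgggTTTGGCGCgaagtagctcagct
Mcm7: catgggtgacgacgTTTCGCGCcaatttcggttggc
Uhrf1: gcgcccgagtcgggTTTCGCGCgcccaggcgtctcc

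For comparison, the same kind of stretch is given for 5 of the mitosis genes that rose in both Het and KO and hold a CHR element, which is in capitals. They lie at chr1:189688065-189688098 (minus strand) for Cenpf, chr19:37376349-37376382 (plus) for Kif11, chr7:135716458-135716491 (minus) for Mki67, chr7:80294432-80294465 (plus) for Prc1 and chr11:99024193-99024226 (minus) for Top2a.
Cenpf: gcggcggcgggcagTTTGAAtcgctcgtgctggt
Kif11: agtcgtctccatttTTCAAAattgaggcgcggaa
Mki67: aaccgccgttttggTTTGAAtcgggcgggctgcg
Prc1: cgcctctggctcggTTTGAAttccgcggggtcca
Top2a: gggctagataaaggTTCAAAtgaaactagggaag

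Whole windows are given for Rrm2 and Ube2c, the replication and mitosis genes with the largest log2 fold in Het against WT. Rrm2 lies at chr12:24708004-24708303 on the plus strand and Ube2c at chr2:164769679-164769978 on the plus strand of GRCm38.p6. Capitals mark CCAAT boxes on either strand and, in Ube2c, the CHR element read on the opposite strand. The Rrm2 window holds 1 match, a CCAAT box, and no E2F site of the 4 searched. The Ube2c window holds 7 matches, of which 2 CCAAT boxes on opposite strands overlap each other.
Rrm2: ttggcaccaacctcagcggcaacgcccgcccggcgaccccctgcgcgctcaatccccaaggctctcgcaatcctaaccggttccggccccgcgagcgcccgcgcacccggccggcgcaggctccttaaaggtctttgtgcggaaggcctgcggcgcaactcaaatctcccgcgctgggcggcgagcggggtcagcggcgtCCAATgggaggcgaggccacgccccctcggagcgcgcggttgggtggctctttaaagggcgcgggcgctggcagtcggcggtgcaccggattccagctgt
Ube2c: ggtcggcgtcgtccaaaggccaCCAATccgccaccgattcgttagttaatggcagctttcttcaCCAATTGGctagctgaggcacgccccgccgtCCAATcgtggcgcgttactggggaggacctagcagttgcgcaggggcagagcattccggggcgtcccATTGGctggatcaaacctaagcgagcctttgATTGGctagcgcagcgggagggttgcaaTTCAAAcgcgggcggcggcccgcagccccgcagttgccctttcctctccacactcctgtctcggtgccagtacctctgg

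Most of these genes were low in cortex, and their levels spanned a wide range. Among replication genes the RPKM ran between 0.406 and 61.5 in Het and between 0.181 and 46.9 in WT. Pcna, the sliding clamp of DNA polymerases, was the highest and the origin licensing factor Cdc6 the lowest. Mitosis genes lay between 0.916 and 6.73 RPKM in Het and between 0.410 and 3.74 in WT, where the highest was Smc4 of condensin. The median level of mitosis genes was 2.83 RPKM in Het and 1.34 RPKM in WT, that of replication genes 4.36 RPKM in Het and 2.71 RPKM in WT. In WT 10 of the 47 genes lay under 1 RPKM, 7 of them mitosis genes.

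**Figure D2:**
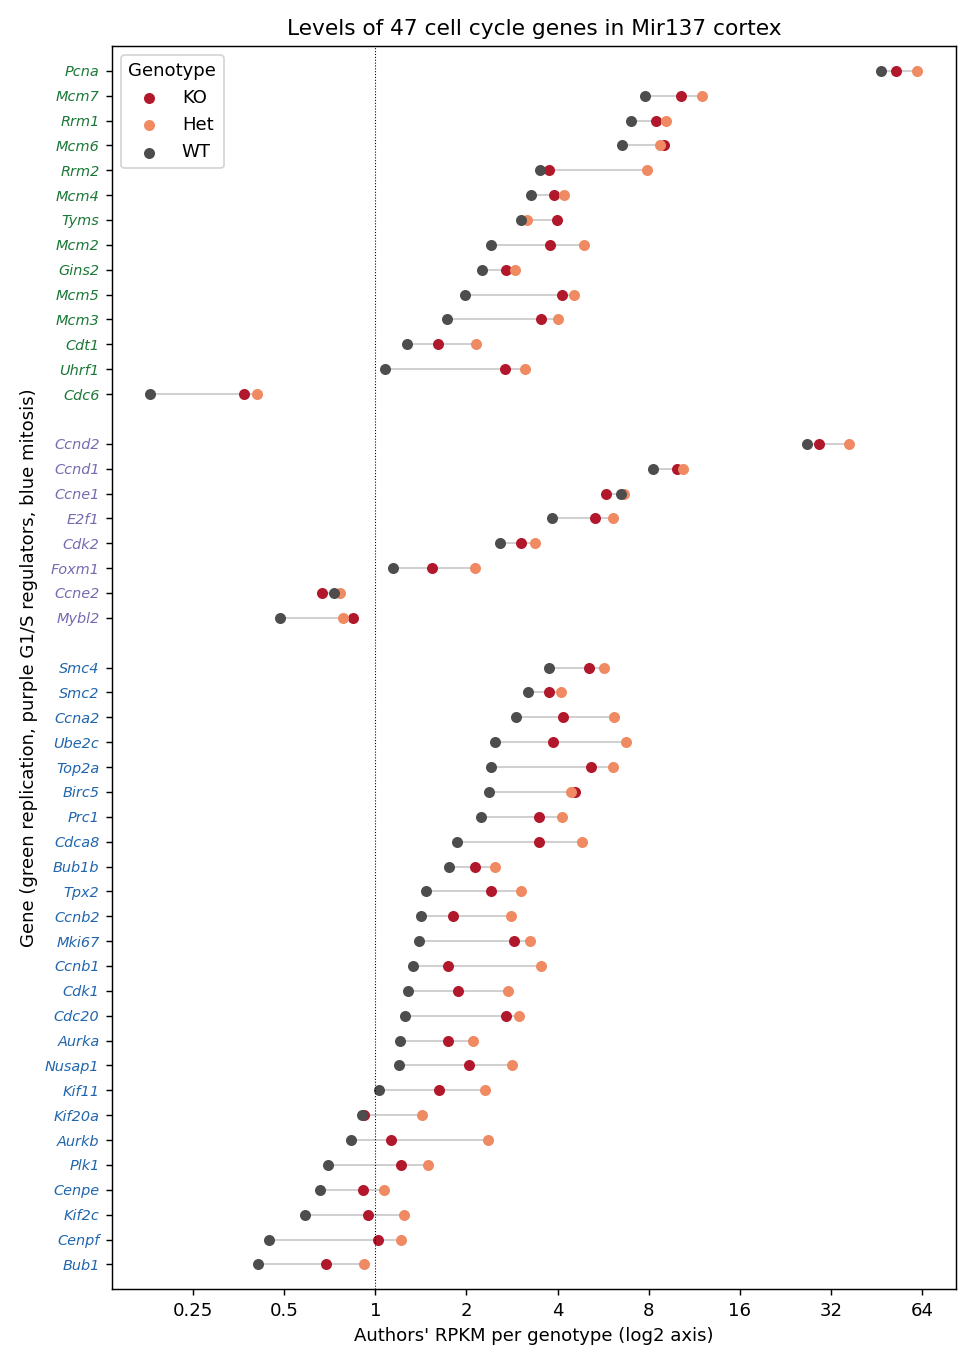
The authors' RPKM (x axis, log2 scale) of each of the 47 genes (y axis, by class and by WT level) in KO, Het and WT cortex, 1 pooled value per genotype and no error bars. The Het value lies to the right of the WT value for all 47 genes, and the dotted line marks 1 RPKM.

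Heterozygous cortex had more RNA of cell cycle genes than WT cortex. All 47 genes had a higher RPKM in Het than in WT, and 29 of them rose in the authors' deposited table, with none lower. With an unadjusted p under 0.05 in the authors' deposited table, 40 were higher in Het and 0 lower. The share of all genes at that unadjusted threshold was not counted in any comparison, so such counts have no background here. Over all 14159 genes tested, 3.95% were called higher in Het. The median fold was 1.86 over the 47 genes, beside 1.01 over genes of at least 1 RPKM. By class 19 of 25 mitosis genes, 7 of 14 replication genes and 3 of 8 G1/S regulators rose. The median fold was 2.14 for mitosis genes, 1.61 for replication genes and 1.34 for G1/S regulators. With a minimum of 1 RPKM in either genotype 43 genes remained and 28 of them rose. Aurkb, Cenpe, Cenpf, Kif20a, Kif2c and Plk1 reached that minimum in Het and not in WT, so the count over measured genes is not independent of the difference.

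Within the MCM helicase the subunits were unequal. In the authors' deposited table Mcm3 stood at 4.02 RPKM in Het against 1.73 in WT, Mcm5 at 4.53 in Het against 1.97 in WT and Mcm2 at 4.87 in Het against 2.41 in WT (q 0.00135 each, the smallest in that table). Mcm7 rose 1.54-fold, to 11.97 RPKM in Het against 7.78 in WT (q 0.00135, authors' deposited table). Mcm6 and Mcm4 had folds of 1.34 and 1.28 and did not pass the test (q 0.0535 and 0.226, authors' deposited table). The helicase thus had 4 of 6 subunits called and 2 with smaller folds. Its loaders did not pass either: Cdt1 had 2.15 RPKM in Het against 1.28 in WT (q 0.102, authors' deposited table), and Cdc6, at 0.406 RPKM in Het against 0.181 in WT, had a p of 1 in the authors' deposited table and counts as untested. Gins2, a subunit of the GINS complex that activates the helicase, had a fold of 1.29 (q 0.884, authors' deposited table).

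The genes that supply and copy the DNA strand also differed among themselves. Rrm2, the S phase subunit of ribonucleotide reductase, which makes deoxynucleotides, stood at 7.90 RPKM in Het against 3.49 in WT (q 0.00135, authors' deposited table). Its partner Rrm1, which is present through the cycle, had 9.10 RPKM in Het against 6.96 in WT (q 0.0538, authors' deposited table). Tyms, which makes thymidylate, had 3.17 RPKM in Het against 3.02 in WT (q 0.918, authors' deposited table). Uhrf1, which guides maintenance DNA methylation behind the fork, had the largest fold of any replication gene, 2.88, at 3.11 RPKM in Het against 1.08 in WT (q 0.00135, authors' deposited table). Pcna rose 1.31-fold, to 61.5 RPKM in Het against 46.9 in WT (q 0.0194, authors' deposited table).

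Of the G1/S regulators E2f1, Foxm1 and Ccnd2 rose, and without Foxm1 and Mybl2 the count was 2 of 6. The transcription factor E2f1 had 6.08 RPKM in Het against 3.83 in WT (q 0.00602, authors' deposited table), and Foxm1, which drives G2 and M phase genes, 2.14 RPKM in Het against 1.15 in WT (q 0.00434). Cyclin D2 (Ccnd2), the D-type cyclin of many neural progenitors, stood at 36.5 RPKM in Het against 26.6 in WT (q 0.00135, authors' deposited table). The E-type cyclins Ccne1 and Ccne2 had folds of 1.03 and 1.04 (q 0.961 and 0.980, authors' deposited table). Ccnd1, Cdk2 and Mybl2, the gene of B-Myb, had folds of 1.26, 1.31 and 1.62 (q 0.113, 0.347 and 0.224, authors' deposited table).

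Mitosis genes had the larger folds. Cyclin B1 (Ccnb1) reached 3.53 RPKM in Het against 1.34 in WT, and Ube2c, the ubiquitin-conjugating enzyme of the anaphase-promoting complex, 6.73 in Het against 2.49 in WT (q 0.00135 each, authors' deposited table). The cyclin A gene Ccna2 stood at 6.14 RPKM in Het against 2.91 in WT and its kinase Cdk1 at 2.75 in Het against 1.28 in WT (q 0.00343 each, authors' deposited table). Ccnb2 had 2.81 RPKM in Het against 1.42 in WT (q 0.0367, authors' deposited table). The cyclins and kinase that drive entry into mitosis were thus all called. Cdc20, which activates the anaphase-promoting complex, had a fold of 2.37 and did not pass (q 0.0856, authors' deposited table).

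Of the chromosomal passenger complex, which corrects attachments of chromosomes to the spindle, Aurkb and Cdca8 rose and Birc5 did not pass. Aurkb, its kinase, had 2.36 RPKM in Het against 0.829 in WT, and Cdca8, the borealin subunit, 4.80 in Het against 1.86 in WT (q 0.00135 each, authors' deposited table). Birc5, survivin, stood at 4.42 RPKM in Het against 2.37 in WT (q 0.0748, authors' deposited table). The related kinase Aurka, of spindle poles, had a fold of 1.74 (q 0.0961), while Tpx2, which activates it, rose 2.07-fold (q 0.00135), in the authors' deposited table. The Polo kinase gene Plk1 had 1.49 RPKM in Het against 0.696 in WT (q 0.0392, authors' deposited table).

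Kinetochore and spindle genes rose in most cases. The kinetochore genes Cenpf and Cenpe had folds of 2.72 and 1.62 (q 0.00135 and 0.0335, authors' deposited table), and the checkpoint kinase gene Bub1 a fold of 2.23, at 0.916 RPKM in Het against 0.410 in WT (q 0.0153). Its relative Bub1b had a fold of 1.41 (q 0.145, authors' deposited table). The spindle motor Kif11, the microtubule binder Nusap1 and the midzone bundler Prc1 rose 2.23-fold, 2.36-fold and 1.84-fold (q 0.00135, 0.00244 and 0.00135, authors' deposited table). Kif2c, a kinesin that takes microtubules apart, rose 2.12-fold (q 0.0384), whereas Kif20a, a kinesin of cytokinesis, had a fold of 1.58 (q 0.743), in the authors' deposited table. Condensin was split, with Smc4 called at 1.52-fold and its partner Smc2 at 1.29-fold not called (q 0.00434 and 0.135, authors' deposited table). Top2a, the topoisomerase that untangles sister chromatids, and the proliferation marker Mki67 rose 2.53-fold and 2.33-fold (q 0.00135 each, authors' deposited table).

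Knockout cortex showed smaller folds against WT, and fewer genes passed. Of the 47 genes 45 had a higher RPKM in KO than in WT, 15 rose and none fell, where 6.72% of all 14059 genes tested were called higher in KO. With an unadjusted p under 0.05 in the authors' deposited table, 27 were higher in KO and 0 lower. The median fold was 1.39, beside 1.01 over genes of at least 1 RPKM. Called genes numbered 10 of 25 mitosis genes and 5 of 14 replication genes. The test called 0 of 8 G1/S regulators, of which 3 had an unadjusted p under 0.05 in the authors' deposited table. Median folds were 1.55 for mitosis, 1.31 for replication and 1.19 for G1/S regulators. The authors did not test Cdc6 and Bub1 in this table. Both comparisons use the same WT libraries.

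**Figure D3:**
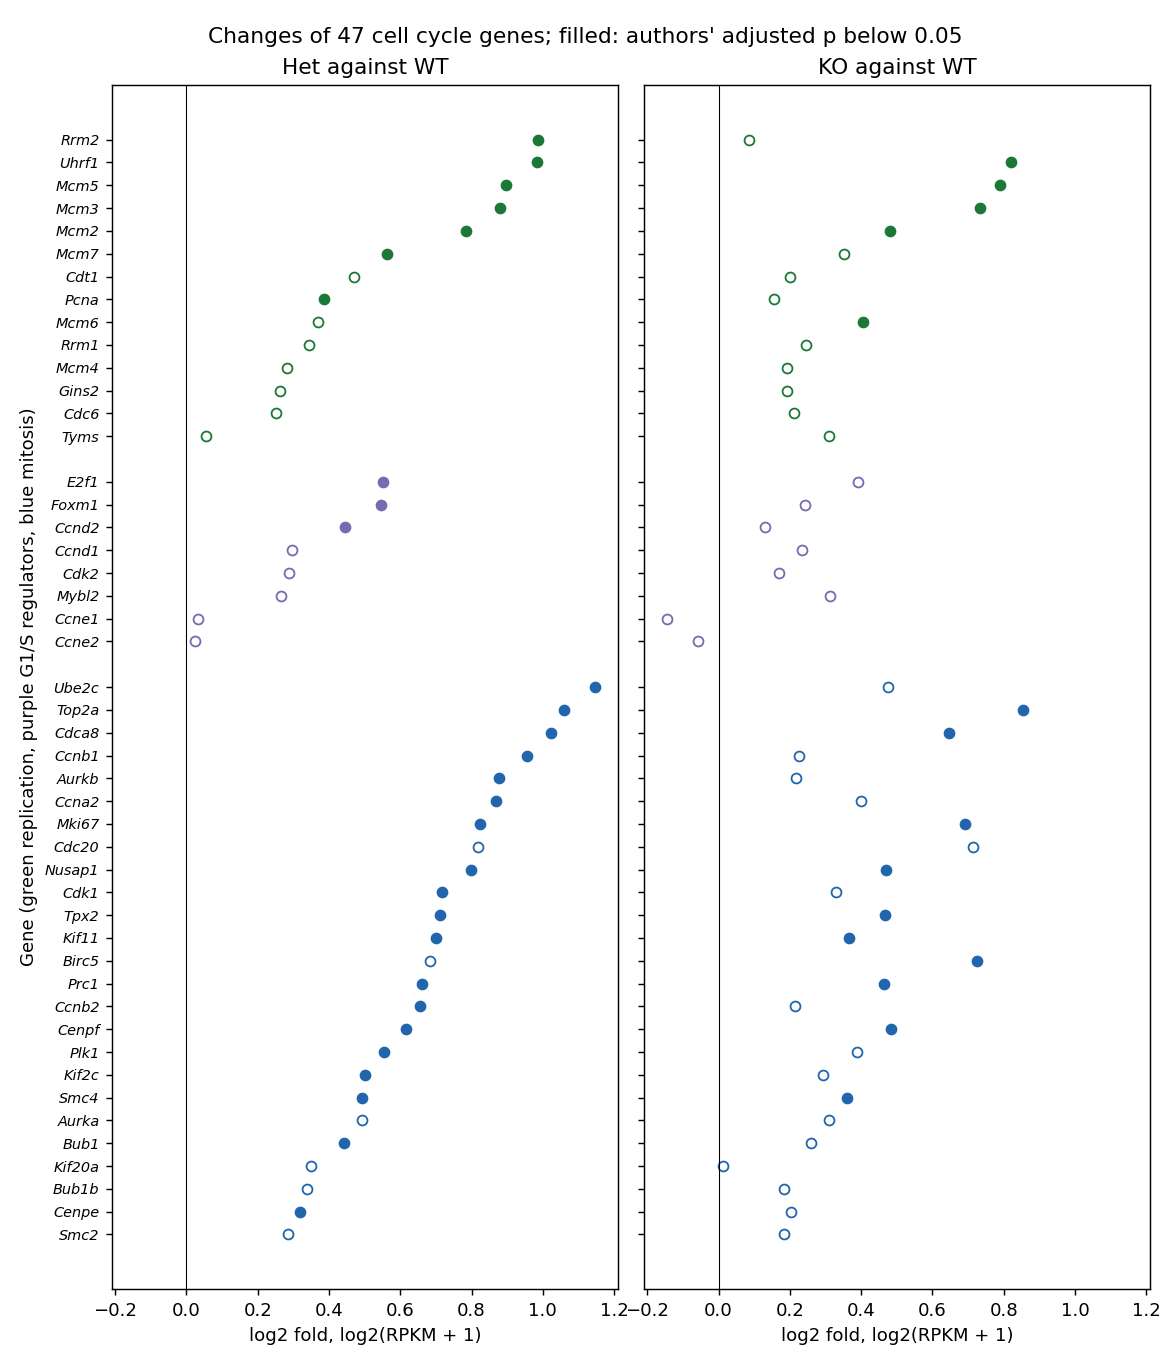
Log2 fold (x axis, difference of log2(RPKM + 1)) of each gene (y axis, by class and by Het fold) in Het against WT (left) and KO against WT (right). Filled points passed the authors' adjusted p of 0.05, which were 29 genes on the left and 15 on the right.

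The replication genes that rose in KO were Mcm2, Mcm3, Mcm5, Mcm6 and Uhrf1. Mcm3 had 3.53 RPKM in KO against 1.73 in WT, Mcm5 4.13 in KO against 1.97 in WT and Uhrf1 2.68 in KO against 1.08 in WT (q 0.000987 each, the smallest, authors' deposited table). Mcm2 had 3.77 RPKM in KO against 2.41 in WT (q 0.00880, authors' deposited table), and Mcm6 9.01 in KO against 6.55 in WT (q 0.0236). The other two MCM genes, Mcm4 and Mcm7, had folds of 1.19 and 1.31 (q 0.364 and 0.0654, authors' deposited table). Rrm2 had 3.76 RPKM in KO against 3.49 in WT (a ratio of 1.08, q 0.797, authors' deposited table). Tyms had a fold of 1.32 (q 0.104) and Pcna one of 1.12 (q 0.457), in the authors' deposited table. For Cdt1, Gins2 and Rrm1 the folds were 1.27, 1.21 and 1.21, none of them called.

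The 10 mitosis genes called in KO included none of the 3 cyclins of the class. Top2a had 5.15 RPKM in KO against 2.41 in WT, Mki67 2.86 in KO against 1.39 in WT and Cenpf 1.02 in KO against 0.446 in WT (q 0.000987 each, authors' deposited table). Tpx2 rose 1.64-fold, Cdca8 1.87-fold and Prc1 1.55-fold (q 0.00386, 0.00616 and 0.0142, authors' deposited table). Birc5, at 4.57 RPKM in KO against 2.37 in WT, and Kif11, at 1.62 in KO against 1.03 in WT, also rose (q 0.0233 and 0.0240, authors' deposited table). Nusap1 and Smc4 passed narrowly (q 0.0395 and 0.0403, authors' deposited table), and neither passed with p adjusted over the 3 comparisons together (0.0601 and 0.0614).

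The cyclins and kinases of mitotic entry were not called in KO. Ccnb1 had 1.73 RPKM in KO against 1.34 in WT, Ccnb2 1.80 in KO against 1.42 in WT and Ccna2 4.16 in KO against 2.91 in WT (q 0.360, 0.494 and 0.211, authors' deposited table). Cdk1 had 1.87 RPKM in KO against 1.28 in WT (q 0.108, authors' deposited table). Aurkb had 1.13 RPKM in KO against 0.830 in WT (q 0.401, authors' deposited table). Cdc20 and Ube2c had folds of 2.15 and 1.55 (q 0.0796 and 0.151, authors' deposited table). The fold of Cdc20 was above that of most called genes and still did not suffice. That of Ube2c was above only Mcm6 and Smc4 among the called genes, at 1.38 and 1.36. E2f1, at 5.33 RPKM in KO against 3.83 in WT, lay just outside the threshold (q 0.0510, authors' deposited table). The E-type cyclins were the 2 genes with a lower RPKM in KO than in WT, Ccne1 at 5.77 RPKM in KO against 6.48 in WT and Ccne2 at 0.667 in KO against 0.733 in WT (q 0.597 and 0.932, authors' deposited table).

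A call in 1 comparison and not in the other does not show that the genotypes differ; the third table tests that difference.

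Knockout against heterozygous cortex gave few calls, all lower in KO. There, 43 of the 47 genes had a lower RPKM in KO than in Het, with a median fold of 0.850, beside 0.999 over genes of at least 1 RPKM. The authors' test called 3 genes lower and 0 higher, where 0.953% of all 14062 genes tested were called lower and 0.917% higher in KO. With an unadjusted p under 0.05, 12 genes were lower in KO and 0 higher, per the authors' deposited table, again without a background share at that threshold. The 3 genes were Rrm2, Ccnb1 and Aurkb.

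Rrm2 had 3.77 RPKM in KO against 7.95 in Het (q 0.00517, the smallest, authors' deposited table). Ccnb1 had 1.74 RPKM in KO against 3.55 in Het (q 0.00517) and Aurkb 1.13 in KO against 2.38 in Het (q 0.0123) in the authors' deposited table. In all 3 the KO value was less than 0.5 of the Het value, at ratios of 0.475, 0.490 and 0.477. Ube2c followed, at 3.87 RPKM in KO against 6.77 in Het (q 0.0879, authors' deposited table), and it passed with p adjusted over the 3 comparisons together (0.0322). Ccnb2, Kif20a, Ccna2 and Cdk1 had ratios of 0.641, 0.644, 0.676 and 0.678 and did not pass (q 0.381, 0.944, 0.512 and 0.2495, authors' deposited table).

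By class the median ratio of KO to Het was 0.792 for mitosis genes, 0.890 for replication genes and 0.874 for G1/S regulators. A ratio under 0.8 was found for 13 of 25 mitosis genes, 3 of 14 replication genes and 2 of 8 G1/S regulators. Within the replication class Rrm2 stood apart from the rest, since the next lowest ratios were those of Cdt1 at 0.749 and Mcm2 at 0.771. The genes with a higher RPKM in KO than in Het were Tyms at a ratio of 1.252, Mybl2 at 1.07, Birc5 at 1.03 and Mcm6 at 1.03, none of them called. The difference between the classes is a description of these medians. It was not tested, since genes are not replicates, and mitosis genes were also the lower class in level.

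**Figure D4:**
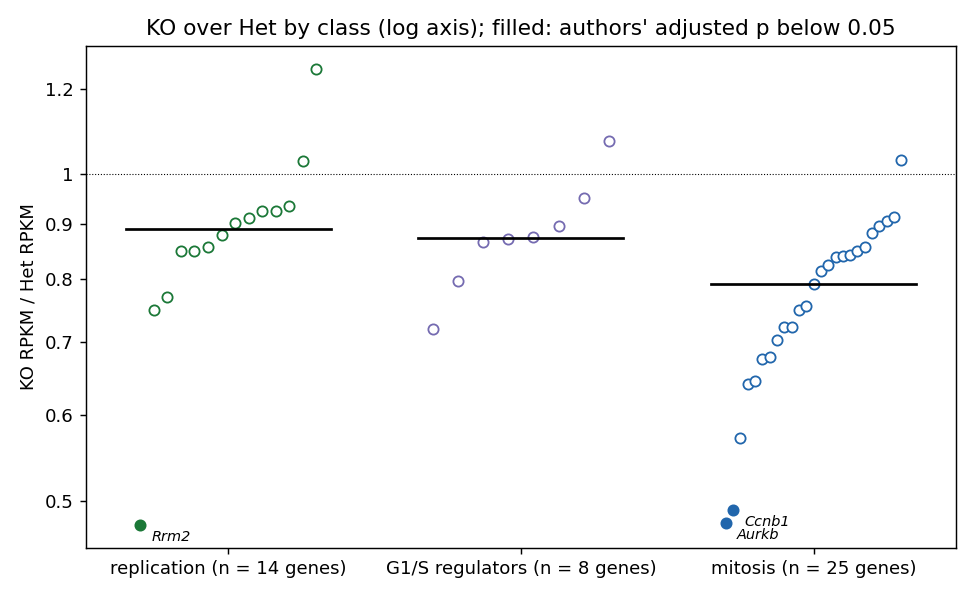
Ratio of KO to Het RPKM (y axis, log scale) of each gene, by class (x axis), with the class median as a black bar and filled points for an adjusted p below 0.05 in the authors' table. The medians lie at 0.890, 0.874 and 0.792, and Rrm2, Aurkb and Ccnb1 lie below 0.5.

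Further genes of the cycle come from lists that hold none of the 47. Of 45 further replication genes, 5 rose in Het and 5 in KO, with median folds of 1.31 and 1.253. Over all genes tested 3.95% were called higher in Het and 6.72% in KO. Lig1, the ligase that joins Okazaki fragments, had 6.28 RPKM in KO against 3.52 in WT (q 0.000987, authors' deposited table), and 5.31 in Het against 3.52 in WT (q 0.0437). Timeless, a fork protection gene, rose 1.65-fold in Het and 1.71-fold in KO (q 0.0441 and 0.00675, authors' deposited tables). KO against Het called 0 of the 45, with 1 lower at an unadjusted p under 0.05 in the authors' deposited table. Over all genes tested 0.917% were called higher and 0.953% lower in KO, so 0 of 45 is near those shares.

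Of 60 further mitosis genes 23 rose and 1 fell in Het against WT, and 11 rose and 1 fell in KO against WT. The shares called higher over all genes tested were 3.95% in Het and 6.72% in KO. Pbk, a mitotic kinase, had 6.39 RPKM in Het against 1.93 in WT, and Racgap1, of the central spindle, 7.83 in Het against 3.69 in WT (q 0.00135 each, authors' deposited table). Cdca3, which acts in mitotic entry, rose 2.51-fold in Het and 2.23-fold in KO (q 0.00135 and 0.000987, authors' deposited tables). The gene that fell in both was Anln, a cytokinesis scaffold that oligodendrocytes also express, at 2.64 RPKM in KO against 4.66 in WT (q 0.000987) and 2.44 in Het against 4.66 in WT (q 0.00135) in the authors' deposited tables. In KO against Het 1 of the 60 was called, near the 0.917% called higher over all genes tested. It was the cytokinesis kinase gene Cit, higher in KO at 3.41 RPKM against 2.15 in Het (q 0.00879, authors' deposited table).

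Of 10 CDK inhibitors and RB family genes the authors' test called 0 in any comparison. Over all genes tested 3.95% were higher and 5.06% lower in Het against WT, 6.72% and 7.68% in KO against WT, and 0.917% and 0.953% in KO against Het, so a count of 0 in 10 is near the share over all genes. With an unadjusted p under 0.05 in the authors' deposited tables, 2 were higher in Het against WT, 2 higher in KO against WT and 0 either way in KO against Het. Cdkn1b, the p27 inhibitor that holds neural progenitors out of the cycle, had 20.3 RPKM in Het against 17.9 in WT (q 0.474, authors' deposited table). Among 21 other cyclins, CDKs and E2F genes 3 rose in Het: Cdk4, the kinase partner of D-type cyclins, at 70.4 RPKM in Het against 48.0 in WT (q 0.00135), the phosphatase gene Cdc25c at 1.27 in Het against 0.473 in WT (q 0.0240) and E2f8 at 0.867 in Het against 0.303 in WT (q 0.00841), in the authors' deposited table. Wee1, which restrains Cdk1, fell in KO, to 3.33 RPKM against 4.73 in WT (q 0.0258) and 3.35 in KO against 5.10 in Het (q 0.0392), in the authors' deposited tables.

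Some marker lists of cell types that divide in the forebrain held genes that rose, and others were mixed. The share called higher among all genes tested was 3.95% in Het and 6.72% in KO against WT. Neuroblast genes rose in 8 of 14 members in Het and 7 of 14 in KO. Those in KO were Cd24a, Dcx, Igfbpl1, Sox11, Stmn1, Tubb2b and Tubb3. The factor genes Dlx1, Dlx2, Dlx5, Dlx6, Sp9 and Sox4 were not called in KO, and Sp8 was untested there. Dlx1, Dlx2, Dlx5, Sp9 and Sox4 had folds of 1.23, 1.13, 1.09, 1.06 and 1.23 in KO. Dlx6 had one of 3.22 (q 0.0691, authors' deposited table) and Sp8 one of 0.702. The summed level of the 14 neuroblast genes was 2157 RPKM in KO, 1810 in Het and 1351 in WT. Most of the KO sum came from Stmn1, Tubb2b and Tubb3, at 750, 610 and 607 RPKM in KO. Gene by gene, 8 of the 14 had a lower RPKM in KO than in Het and 6 a higher one, with a median fold of 0.946. Neural progenitor genes rose in 4 of 13 in each, namely Fabp7, Tnc, Nes and Eomes, with sums of 900.5 RPKM in KO, 916 in Het and 708 in WT. Fabp7 alone had 403 RPKM in KO, 423 in Het and 226 in WT, and the median fold of the list was 1.10 in KO and 1.15 in Het. Eomes, a factor of intermediate progenitors, stood at 2.49 RPKM in Het against 1.195 in WT (q 0.00135, authors' deposited table), and Prom1, chosen after its value was seen, fell in Het to 5.36 RPKM against 7.32 in WT (q 0.0268). Oligodendrocyte precursor genes rose in 5 of 11 in Het and 3 of 11 in KO, with sums of 302 RPKM in KO, 320 in Het and 249 in WT. Those called in both were Gpr17, Bcas1 and Sox10. Pdgfra and Cspg4 were called in neither, with folds of 0.973 and 0.876 in Het and 0.903 and 1.03 in KO. No marker of these 3 lists was at 0 in any genotype. Their part in the cell cycle result was not tested.

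Of 4 genes of cortical excitatory neurons, Slc17a7, Tbr1, Emx1 and Neurod6, chosen after their values were seen, none was at 0. A level above 0 cannot show whether a sample also held other tissue. The vesicular glutamate transporter Slc17a7 had 393 RPKM in KO, 484 in Het and 574 in WT, and fell in KO against WT (q 0.000987, authors' deposited table). The factor Tbr1 had 14.1 RPKM in KO, 16.6 in Het and 11.3 in WT, and rose in Het (q 0.00135, authors' deposited table). Emx1 and Neurod6 were called in no comparison, and none of the 4 was called in KO against Het. Of these cortical markers only Slc17a7 and Tbr1 thus differed from WT, in 1 comparison each and in opposite directions. Other tissue markers moved with genotype. As background, 3.95% of all genes tested were called higher and 5.06% lower in Het against WT. Those shares were 6.72% and 7.68% in KO against WT, and 0.917% and 0.953% in KO against Het. All 12 striatal projection neuron genes rose in both comparisons with WT, with sums of 534 RPKM in KO, 526 in Het and 76.2 in WT, and 9 of 10 choroid plexus genes fell, with sums of 116 RPKM in KO, 341 in Het and 2219 in WT. Microglia genes were mixed, 3 of 12 higher and 5 lower in each comparison with WT (sums of 377 RPKM in KO, 388 in Het and 502 in WT), and endothelial genes numbered 1 of 10 higher and 3 lower in Het and 1 higher and 2 lower in KO (sums of 112, 105 and 115 RPKM in KO, Het and WT). Erythroid genes rose in 3 of 7 and fell in 1 in Het, with the globin gene Hbb-bt at 67.5 RPKM in Het against 22.4 in WT (q 0.00135, authors' deposited table), and in KO 1 rose and 1 fell. The gene that fell in both was Tfrc, the transferrin receptor, which other cells also express. In KO against Het 4 choroid plexus genes (sums of 116 RPKM in KO and 344 in Het), 2 erythroid genes (sums of 63.3 RPKM in KO and 118 in Het) and 1 neuroblast gene, Sp8, were lower in KO. The count of 1 in 10 endothelial genes higher in each comparison with WT is near the share over all genes. The part of these tissues in the cell cycle result was not tested either.

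**Figure D5:**
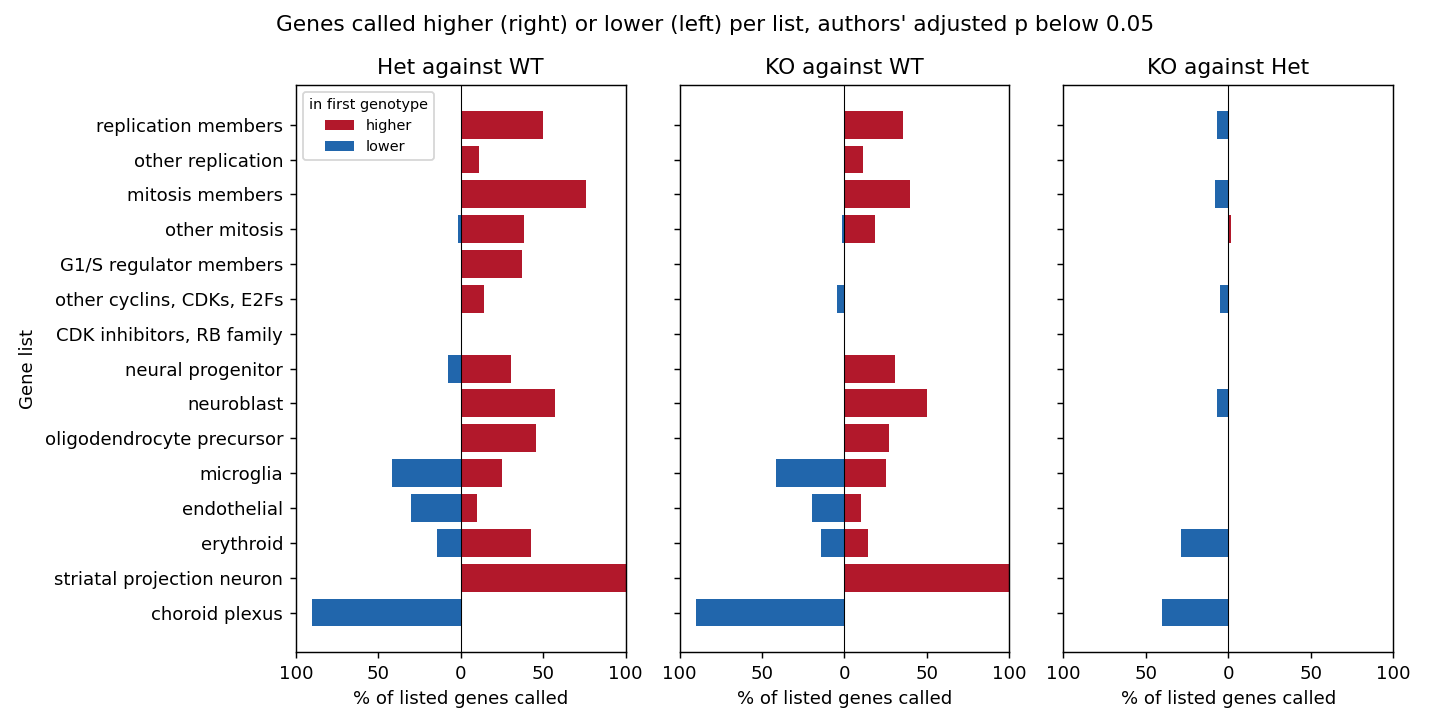
Share of the listed genes (x axis, % of those in the table) called higher (red, right) or lower (blue, left) in the genotype named before "against", for each list (y axis) and comparison. Mitosis members reach 19 of 25 in Het against WT and 10 of 25 in KO against WT, where 3.95% and 6.72% of all genes tested were called higher.

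Over the 47 genes together, the share with a match to the miR-137 seed was near that of expressed genes. The seed, bases 2 to 8, is in capitals in the mature sequence of mmu-miR-137-3p, from RefSeq, at chr3:118433901-118433923 on the plus strand of GRCm38.p6.
mmu-miR-137-3p: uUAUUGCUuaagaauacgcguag
The 7 letters AGCAATA that pair with this seed lay in the longest annotated 3′ UTR (GENCODE M21 on GRCm38) of 4 of the 47 genes (8.51%), against 10.8% of 12443 genes of at least 1 RPKM in Het or WT. The 4 were Birc5, which holds 2 matches, Gins2, Pcna and Tyms. By class the share was 3 of 14 replication genes (21.4%), 1 of 25 mitosis genes (4%) and 0 of 8 G1/S regulators. These counts are too small to compare the classes. Median UTR lengths were 1031 bases in the 47 genes and 1228 in the larger set. Sites of the 2 called genes are shown, with the match in capitals, on chromosome 11 for Birc5 and chromosome 2 for Pcna.
Birc5: gttcaattcccAGCAATAcaaaaataata
Birc5: acgtggacttaAGCAATAaggaagtgatg
Pcna: atcgtggagatAGCAATAaaaaaatgttt
Birc5 rose in KO and Pcna in Het, as given above, while Gins2 and Tyms were called in neither. A match of 7 letters is a description and shows no targeting.

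Pseudogenes carrying the name of Ccnb1, Ccnb2, Pcna and Tyms are in the list of mouse gene names used here. The handling of reads that such copies share is not stated, so the levels of these 4 genes are less certain. Copies under other names were not searched, so other members may be affected too.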

How the data were processed

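Cortex RNA of 12 libraries, 4 per genotype, was read as paired ends of 50 cycles on an Illumina HiSeq from TruSeq RNA v2 libraries, per the labels' protocols. Per the submitters' processing notes the tools were Cuffdiff 2.2.1, TopHat2 2.0.13 and CASAVA 1.4 and the build mm9. The role of each tool and the annotation used were not given in the sources read. The authors deposited RPKM values, 1 per genotype in each of 3 tables, per the file headers. The p-values and q-values are the authors' own, per the file headers, and each q was matched by Benjamini-Hochberg adjustment of the p-values below 1, whose genes are counted as tested. The deposited log2 fold column holds error cells and was not used. Groups were taken from the genotype in each title, and 0 value columns were left without a genotype.

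No test of expression was run here, since pooled values carry no spread, and a gene is called where the authors' q is below 0.05. Log2 folds used a pseudocount of 1 and a gene counted as measured at 1 RPKM or more in either genotype. For the 47 genes the same genotype's RPKM differed between tables by at most 0.686%. The members and all gene lists were chosen with earlier results of these data known. All 47 members could be named. Of each other list, up to 4 called genes of at least 1 RPKM per comparison could be named, by smallest q. Named outside this rule, after their values were seen, were Prom1, E2f8, Cdkn1b, Incenp, Pdgfra, Cspg4, Tubb3, Sox4, Sp9, Dlx1, Dlx2, Dlx5, Dlx6 and 4 cortical genes. Of the listed names, Claspn, Knstrc, Hba-a1, Hbb-b1 and Hbb-b2 were not matched in the tables. Promoters came from RefSeq and 3′ UTRs from GENCODE M21, joined by symbol; some items are not reported here. The steps were tested on simulated data. The scripts used pandas 2.3.3, numpy 2.4.6 and matplotlib 3.10.9 under Python 3.11.15. Alternatives covered the q threshold, adjustment over the 3 comparisons together, the RPKM minimum, a minimum fold, the pseudocount, recentred folds and the promoter window.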

Additional observations from a re-analysis of the deposited data

How the results depend on the processing

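With no spread on a level, a median or share was taken as moved when it changed by over 1.5 times. Of the 54 alternatives run on counts, medians and motif shares, 45 stayed within that and 9 did not. Over members of at least 5 RPKM the calls numbered 9 of the 28 in Het against WT, 3 of the 15 in KO against WT and 1 of the 3 in KO against Het, since fewer genes are left. In KO against WT 9 genes had a q below 0.01, and 7 passed with an absolute log2 fold of at least 0.5. The median log2 fold of measured mitosis genes in Het against WT was 0.69, and 1.08 with a pseudocount of 0.01. In KO against WT it was 0.40, and 0.61 and 0.63 with pseudocounts of 0.1 and 0.01, by construction since these genes are low. E2F sites fell to 10.3% of member windows in the 150 bases nearest the start, against 23.1%, and of replication windows to 28.6%, against 50.0%. No called log2 fold changed sign with either pseudocount or with recentring. A pseudocount cannot change a sign, and recentring moved folds by at most 0.00944, so neither is a check on direction. No paired analysis was possible because the deposited columns hold 1 pooled value per genotype, and for the same reason no library could be left out. Depth per library is unknown, so what it limits cannot be given.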
